A study of Mus musculus with 12 samples.

Results

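The collagen chains, matrix metalloproteinases (MMPs), tissue inhibitors of metalloproteinases (TIMPs) and ADAMTS proteases were followed in RNA sequencing of mouse kidney after ischemia-reperfusion. Genes were taken by symbol: collagen chains named Col, number, a, number, and every Mmp, Timp or Adamts symbol that ends in its number, with 1 MMP gene left out by the rule. The table held 85 such genes among 25553, namely 43 collagen chains, 20 MMPs, 4 TIMPs and 18 ADAMTS genes. Kidneys came from wild-type mice, 3 in each of 4 groups. Normoxic sham mice had neither hypoxia nor clamping. Normoxic RIRI (renal ischemia-reperfusion injury) mice had both renal pedicles clamped for 45 min and 12 h of reperfusion without hypoxia. Preconditioned sham mice breathed 8% oxygen at normal pressure for 2 h, 4 h and 8 h on days 1, 2 and 3 and were not clamped, and preconditioned RIRI mice had the same hypoxia followed by the same clamping and reperfusion. The labels name neither strain nor sex nor age, and every injured kidney was taken at the same time after clamping.

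Collagens are triple-helical proteins of the extracellular matrix. Collagen IV forms the network of basement membranes, in which the α1 and α2 chains are widespread and the α3, α4 and α5 chains make up the network of the mature glomerular basement membrane. Fibrillar collagens such as types I, III and V build the interstitial fibrils whose build-up marks kidney fibrosis. MMPs are zinc proteases that are secreted or membrane-bound as inactive precursors and cut matrix proteins and many other substrates. ADAMTS proteases cut proteoglycans and process procollagens. TIMPs bind and block MMPs, and Timp3 also blocks ADAMTS proteases.

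Values are FPKM, fragments scaled by gene length and by the size of the library, and can be compared between genes. Whole reads recovered from the steps between FPKM values came to 33096854 to 35707662 per library. All 12 libraries carry the same batch number. Markers of proximal tubule, thick ascending limb and collecting duct, podocytes and endothelium were detected in every library, and the 8 proximal tubule markers summed to an FPKM of 46798 to 52049 in normoxic sham, most of it from Kap. Differences were tested with limma on log2(FPKM + 1), with p-values adjusted by Benjamini-Hochberg (BH) over 12357 genes, and a gene was called at an adjusted p under 0.05. All adjusted p-values below are of this kind, log2 fold changes are given ± SE, and group means of FPKM ± SD with n = 3. Nothing in the labels says how the mice of a group were kept or run together, so p-values measure the spread between these libraries. Changes of low genes are understated on this scale: for Mmp10 the log2 fold change in normoxic injury was 2.30 as tested, 5.11 with a pseudocount of 0.1 and 7.73 with voom on the recovered reads, and the other genes at a few FPKM or less moved in the same sense, with no change of sign. Only genes with an FPKM of at least 1 in at least 3 libraries were tested, which 42 of the 85 passed: 21 collagens, 11 MMPs, 3 TIMPs and 7 ADAMTS genes. A gene can pass through the injured group alone, so the counts below describe those 42 genes and not the 85.

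In normoxic mice, injury was accompanied by more RNA for 10 of the 18 tested matrix proteases, where 41.6% of all tested genes were called higher. RNA of the inhibitor Timp1 and of the collagen IV chains Col4a1 and Col4a2 was higher too. RNA of Col4a3, Col4a4, Col4a5 and the inhibitor Timp3 was lower. Of the higher genes, Adamts2, Adamts4, Mmp3, Mmp7, Mmp9, Mmp10, Mmp19 and Timp1 passed the filter through injured kidneys only. The count of 10 was thus largely bound to the filter. Injured kidneys of preconditioned mice held less RNA of Mmp3, Mmp9, Mmp10, Mmp19, Adamts1, Adamts4, Timp1, Col4a1 and Col4a2 than injured kidneys of normoxic mice, and more RNA of the interstitial collagens Col1a1, Col1a2, Col6a3 and Col16a1, which normoxic injury had not changed by the test. For Col1a2 this was not stable: several alternatives called it lower in normoxic injury, and several lost its difference between the RIRI groups. Of the 42 tested genes, 19 were higher and 12 lower in normoxic RIRI than in normoxic sham, where 41.6% and 30.1% of all tested genes were called in these directions. In preconditioned RIRI against normoxic RIRI, 13 were higher and 13 lower, against 24.7% and 17.4% of all tested genes. In preconditioned RIRI against preconditioned sham, 22 were higher and 10 lower, against 33.0% and 19.4%. The median log2 fold change of the 42 genes was 0.20, 0.15 and 0.44 in these 3 comparisons, beside 0.10, 0.06 and 0.10 for all tested genes. In normoxic injury the share of members called was near that of all genes, and is no result about these families.

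By size, 14 of the 42 were called and at least 2-fold higher and 5 at least 2-fold lower (on FPKM + 1) in normoxic RIRI than in its sham, against 11.2% and 9.68% of all tested genes. Among the 14, Adamts2, Adamts4, Mmp3, Mmp7, Mmp9, Mmp10, Mmp19 and Timp1 were under 1 FPKM in every sham kidney. They passed the filter through injured kidneys only, so their being higher there was bound to the filter. Mmp9 and Mmp10 passed through normoxic RIRI alone, so their being lower in preconditioned RIRI was bound to it too. Mmp3 reached 1 FPKM only in normoxic RIRI and in preconditioned RIRI replicate 1, so its being lower was bound to the filter in part. Between the RIRI groups, Col1a1 alone was 2-fold higher in preconditioned mice (2.81% of all tested genes), and Adamts1, Mmp3, Mmp9, Mmp10, Mmp19 and Timp1 were 2-fold lower (1.97%). In preconditioned injury, 10 genes were 2-fold higher (4.7%) and 2 lower (3.76%), the latter being Col14a1 and Col4a3. The 3 values of one group lay wholly above or below those of the other in 76.2% of the 42 genes in normoxic injury, in 66.7% between the RIRI groups and in 81.0% in preconditioned injury, against 74.3%, 47.7% and 63.3% of all tested genes.

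Rescaling the libraries by the median ratio moved the median of all genes in normoxic injury from 0.10 to -0.03, and the share of all calls that were higher from 58.05% to 47.59%. For injury in preconditioned mice that share went from 63.01% to 47.58%, and for the 2 RIRI groups it went from 58.68% to 48.18% with quantile normalization. No called difference of the 42 genes changed sign under either rescaling. Col1a2, Col6a1 and Mmp23, not called in normoxic injury, were called lower there after median-ratio rescaling (log2 fold changes of -0.62, -0.44 and -0.32).

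**Figure D1:**
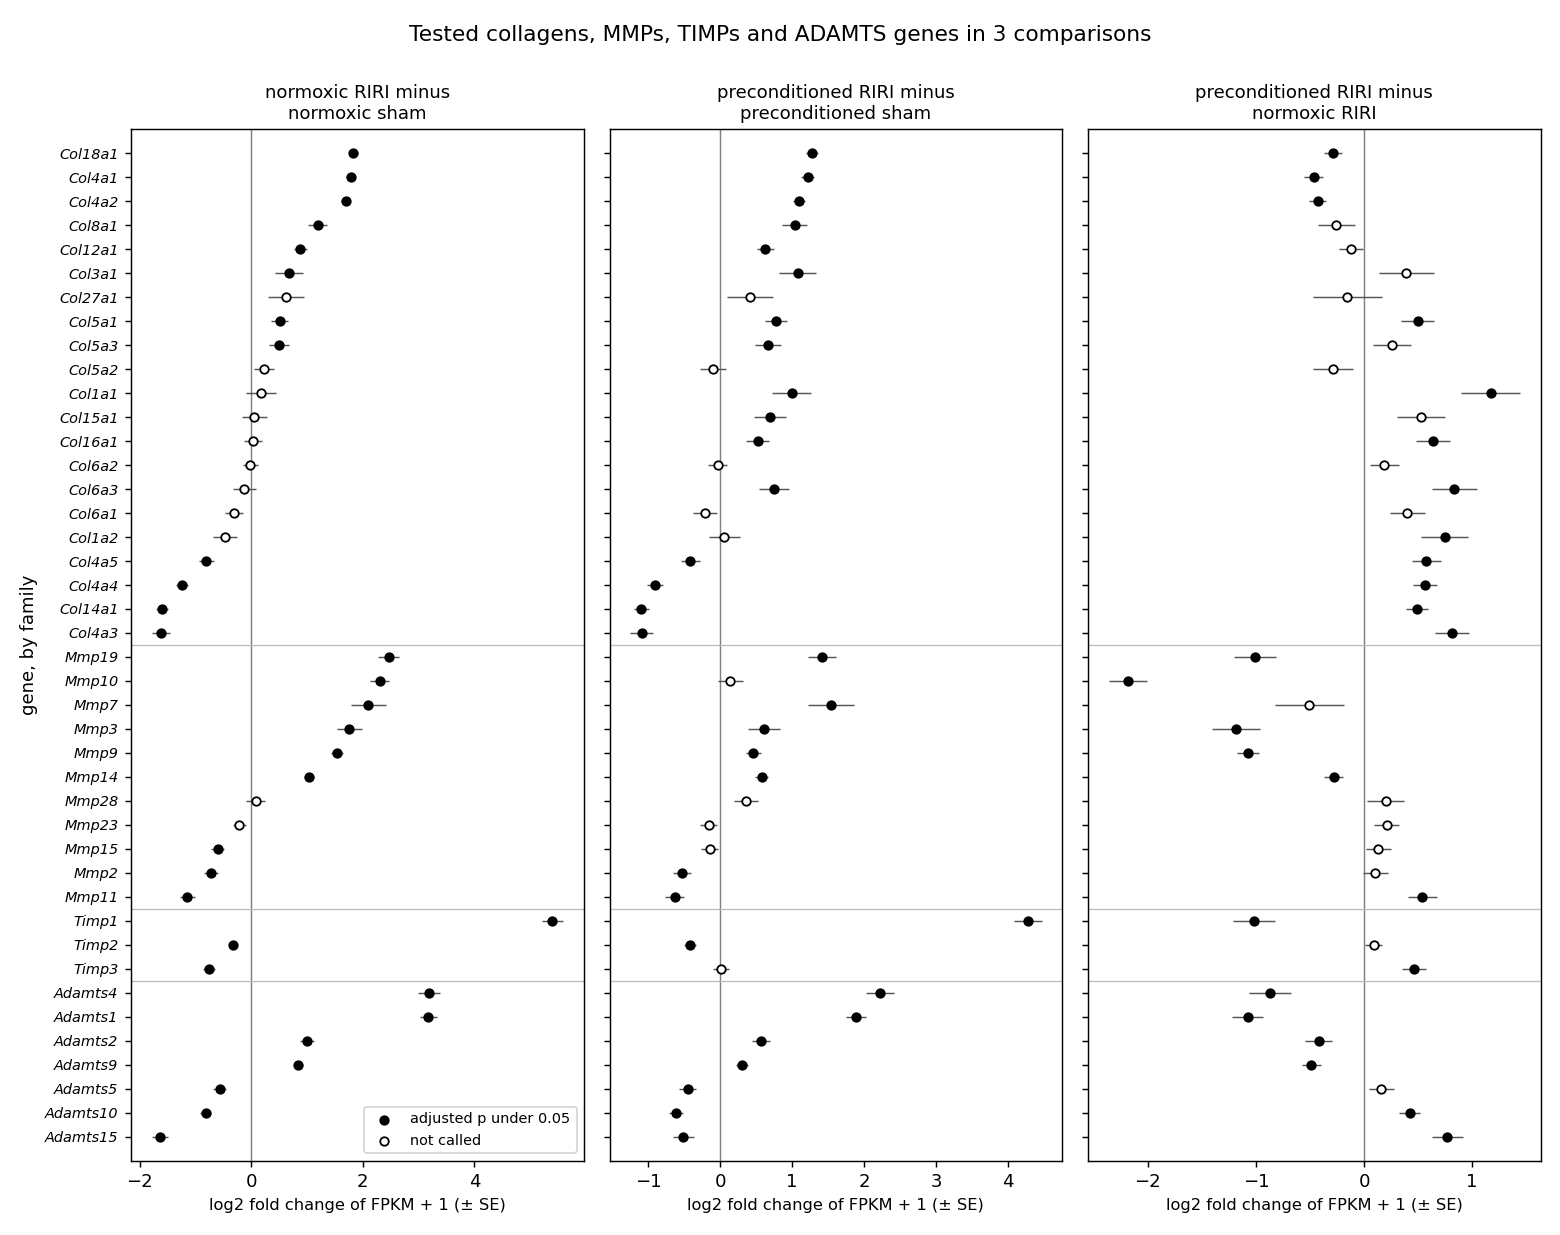
Log2 fold change of FPKM + 1 with its SE for the 42 tested genes (vertical axis, by family) in normoxic injury, in injury of preconditioned mice and between the RIRI groups, each panel on its own horizontal scale. Filled points have an adjusted p under 0.05. Timp1 has the highest value of the first panel, 5.40, and Mmp10 the lowest of the third, -2.19.

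Of the MMP genes that rose, 3 are neighbours. The 7 genes Mmp13, Mmp12, Mmp3, Mmp10, Mmp27, Mmp20 and Mmp7, in this order, lie within 427.1 kb on chromosome 9 of mm10, from 7272514 to 7699585. Mmp3 and Mmp10 encode the stromelysins, which cut proteoglycans, laminin and collagen IV, and Mmp7 encodes matrilysin, a small protease made by epithelia. Mmp10 had 0, 0 and 4 reads in normoxic sham, 144, 315 and 280 in normoxic RIRI, 0, 0 and 0 in preconditioned sham and 5, 7 and 7 in preconditioned RIRI. It was near absent from every sham kidney, and the normoxic RIRI kidneys stood far above all others.

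In FPKM, Mmp10 measured 2.45, 5.43 and 4.73 in normoxic RIRI and 0.0838, 0.114 and 0.117 in preconditioned RIRI, so that the mean of the first was 40.0 times that of the second. Its log2 fold change was 2.30 ± 0.18 (SE) in normoxic injury (adjusted p = 3.46e-07) and -2.19 ± 0.18 between the RIRI groups (adjusted p = 1.38e-05). In preconditioned mice the injury effect was 0.14 ± 0.18 and was not called (adjusted p = 0.518), although the read counts of the groups did not overlap. With voom on the recovered reads it was called (log2 fold change 3.61, adjusted p = 0.0196).

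Mmp3 measured 0.0494, 0.142 and 0.187 FPKM in normoxic sham, 1.84, 2.87 and 4.03 in normoxic RIRI, 0.0976, 0.0977 and 0.101 in preconditioned sham and 1.39, 0.471 and 0.338 in preconditioned RIRI. All injured kidneys exceeded all shams, the injured groups did not overlap, and preconditioned RIRI replicate 1 was the highest of its group. Its log2 fold change was 1.76 ± 0.22 in normoxic injury (adjusted p = 1.84e-05), -1.19 ± 0.22 between the RIRI groups (adjusted p = 0.00152) and 0.61 ± 0.22 in injury of preconditioned mice (adjusted p = 0.0358). The last call was lost without preconditioned RIRI replicate 1 (log2 fold change 0.35, adjusted p = 0.15), without any 1 of the preconditioned shams (adjusted p = 0.0742 to 0.0775) and with quantile normalization (0.43, adjusted p = 0.14).

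Mmp7 measured 0.106, 0 and 0.0251 FPKM in normoxic sham, 1.48, 5.95 and 4.17 in normoxic RIRI, 0, 0.210 and 0.0542 in preconditioned sham and 3.31, 1.24 and 2.24 in preconditioned RIRI. Unlike the stromelysins, its injured groups overlapped: the lowest normoxic RIRI value lay inside the preconditioned RIRI range. It rose in both injuries, by 2.10 ± 0.32 (adjusted p = 8.30e-05) and 1.54 ± 0.32 (adjusted p = 0.00163), and the RIRI groups differed by -0.50 ± 0.32 (adjusted p = 0.219), a value that became -0.93 with an adjusted p of 0.0082 without normoxic RIRI replicate 1. Of the exonic bases of Mmp7, 11.5% also belong to exons of AV064505, and the labels do not say whether counting used the strand, so reads of overlapping genes cannot be told apart here or in the genes named below for the same reason.

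The neighbours Mmp12 and Mmp13 did not share this rise. Mmp13, a collagenase that cuts fibrillar collagen, had 49, 44 and 69 reads in normoxic sham and 23, 2 and 9 in normoxic RIRI, with no overlap, 44, 43 and 45 in preconditioned sham and 22, 17 and 9 in preconditioned RIRI. It was below the filter, and in the fit without one it was lower in both injuries (adjusted p = 0.000646 and 0.00961). Mmp12, macrophage metalloelastase, reached at most 0.634 FPKM and was not called in that fit (log2 fold change -0.25 in normoxic injury, adjusted p = 0.113).

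Promoters of 5 of these neighbours are shown, to set the 3 tested genes that rose beside 2 that did not. A further neighbour, Mmp27, was higher in normoxic injury in the fit without a filter, on 1, 0 and 0 reads in normoxic sham and 6, 2 and 5 in normoxic RIRI (log2 fold change 0.077, adjusted p = 0.00573), and its promoter held neither set of letters searched below. A RefSeq promoter (GRCm38.p6, the assembly behind mm10) was at hand for 63 of the 85 genes. In the 250 bases before the start, the letters TGANTCA, the binding site of AP-1 factors, were found on either strand in 7 of the 63 genes: Mmp3, Mmp7, Mmp10, Mmp12, Mmp13, Mmp20 and Col6a1. The 63 genes have 69 promoter entries, of which 7 held the letters. Another entry of Mmp7, with its window at chr9:7692091-7692390, held neither TGANTCA nor TATAAA before its start and is not shown. Among all 32851 promoters, 6.749% held these letters, and among 12418 promoters of tested genes 4.687% did. The start is that of the promoter entry, which can differ from the first base of the gene. Given are the 120 bases before the start on the plus strand, 5′ to 3′, with TGANTCA and TATAAA matches in capitals.
Mmp3, chr9:7445702-7445821: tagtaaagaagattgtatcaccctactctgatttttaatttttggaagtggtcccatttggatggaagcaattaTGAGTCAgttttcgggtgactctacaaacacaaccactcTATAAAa
Mmp10, chr9:7502222-7502341: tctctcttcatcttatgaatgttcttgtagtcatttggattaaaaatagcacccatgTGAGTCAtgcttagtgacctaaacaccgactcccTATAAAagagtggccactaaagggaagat
Mmp7, chr9:7691970-7692089: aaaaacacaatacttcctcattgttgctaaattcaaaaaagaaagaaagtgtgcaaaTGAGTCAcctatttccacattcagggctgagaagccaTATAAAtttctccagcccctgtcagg
Mmp12, chr9:7347254-7347373: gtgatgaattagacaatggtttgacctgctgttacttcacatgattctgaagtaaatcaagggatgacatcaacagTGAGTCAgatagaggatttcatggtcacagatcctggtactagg
Mmp13, chr9:7272394-7272513: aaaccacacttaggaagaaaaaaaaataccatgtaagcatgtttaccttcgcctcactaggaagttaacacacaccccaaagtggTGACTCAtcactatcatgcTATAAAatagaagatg
The match began 46 bases before the start in Mmp3, 63 in Mmp10, 63 in Mmp7, 44 in Mmp12 and 35 in Mmp13. In Mmp20, not shown, it began 95 bases before the start. Mmp20 had at most 10 reads in a library and was above 0 in 6 libraries. In the fit without a filter it was not called in normoxic injury (log2 fold change 0.055, adjusted p = 0.109). Whether these letters bear on the RNA levels was not tested. TATAAA was present in 4 of these 5 windows. It was found in 11 of the 69 promoter entries, against 12.37% of all promoters and 6.684% of those of tested genes. These matches describe the letters only.

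Of the gelatinases, which cut denatured collagen and collagen IV, Mmp9 rose and Mmp2 fell in normoxic injury. Mmp9 measured 0.0858, 0.135 and 0.251 FPKM in normoxic sham, 2.19, 2.41 and 2.44 in normoxic RIRI, 0.208, 0.201 and 0.0716 in preconditioned sham and 0.742, 0.417 and 0.641 in preconditioned RIRI. The 3 levels, sham, preconditioned RIRI and normoxic RIRI, did not overlap. The log2 fold change was 1.53 ± 0.10 in normoxic injury (adjusted p = 1.14e-07), 0.46 ± 0.10 in preconditioned mice (adjusted p = 0.00268; with quantile normalization 0.28, adjusted p = 0.0521) and -1.07 ± 0.10 between the RIRI groups (adjusted p = 2.84e-05).

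Neutrophils carry Mmp9, and of 10 neutrophil markers in the table the 5 that were tested, S100a8, S100a9, Csf3r, Cxcr2 and Retnlg, were higher in normoxic RIRI than in its sham and lower in preconditioned than in normoxic RIRI. Csf3r, Cxcr2 and Retnlg passed the filter through injured kidneys only, so their being higher there was bound to the filter. None of these genes would pass without the normoxic RIRI kidneys, so their being lower in preconditioned RIRI was bound to it in part. The marker list summed to an FPKM of 2.46 to 14.9 in normoxic sham, 128 to 288 in normoxic RIRI, 1.76 to 4.33 in preconditioned sham and 23.4 to 110 in preconditioned RIRI, whose replicate 1 had the highest sum and also the highest Mmp3 and Mmp9. In normoxic RIRI they did not match: replicate 2 had the highest sum, and replicate 3 the highest Mmp3 and Mmp9. Of the untested markers Mpo stayed under 0.1 FPKM in every library, Ltf measured 0.119, 0.104 and 0.112 in normoxic sham and 0.0970, 0.0872 and 0.0534 in normoxic RIRI, and Camp, Ly6g and Ngp were at 0 in several libraries. Their part in these results was not tested. In whole tissue, fewer cells of a type and less RNA per cell cannot be told apart, which holds for every gene here.

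Mmp2, which fibroblasts make without stimulation, measured 1.49, 1.55 and 1.38 FPKM in normoxic sham, 0.600, 0.345 and 0.557 in normoxic RIRI, 1.34, 1.12 and 1.54 in preconditioned sham and 0.435, 0.909 and 0.525 in preconditioned RIRI. Every injured kidney lay below every sham, and the injured groups overlapped. It fell in both injuries, with log2 fold changes of -0.73 ± 0.12 and -0.53 ± 0.12 (adjusted p = 1.74e-04 and 0.00306), and the RIRI groups differed by 0.11 ± 0.12 (adjusted p = 0.502).

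Mmp14, the membrane-type MMP that activates the Mmp2 precursor together with Timp2, went from 3.12, 3.68 and 2.90 FPKM in normoxic sham to 7.05, 7.60 and 8.29 in normoxic RIRI, and from 3.54, 3.65 and 4.11 in preconditioned sham to 5.76, 6.32 and 6.26 in preconditioned RIRI. No values of the 2 injured groups overlapped, and both stood above all shams. It rose by 1.03 ± 0.088 in normoxic injury (adjusted p = 8.04e-07) and by 0.58 ± 0.088 in preconditioned mice (adjusted p = 2.20e-04). The difference of -0.28 ± 0.088 between the RIRI groups (adjusted p = 0.0244) was lost without normoxic RIRI replicate 3 (adjusted p = 0.0874) or preconditioned RIRI replicate 1 (0.0769).

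Mmp15, another membrane-type MMP, measured 1.73 ± 0.0530 FPKM (SD, n = 3) in normoxic sham and 0.811 ± 0.243 in normoxic RIRI and was lower by the test (-0.60 ± 0.11, adjusted p = 4.84e-04). In preconditioned mice, sham and injured kidneys measured 1.19 ± 0.264 and 0.976 ± 0.112, a log2 difference of -0.15 ± 0.11 (adjusted p = 0.302).

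Among the remaining MMPs, Mmp19 and Mmp11 moved in opposite directions. Mmp19, which cuts basement membrane components, measured 0.0600, 0.123 and 0.105 FPKM in normoxic sham, 3.25, 5.23 and 7.28 in normoxic RIRI, 0.127, 0.136 and 0.0961 in preconditioned sham and 2.18, 1.51 and 2.37 in preconditioned RIRI. Sham kidneys held almost none of it, and the injured groups did not overlap. Its log2 fold change was 2.46 ± 0.19 in normoxic injury (adjusted p = 3.93e-07), 1.42 ± 0.19 in preconditioned mice (adjusted p = 9.98e-05) and -1.01 ± 0.19 between the RIRI groups (adjusted p = 0.00181). Of its exonic bases, 28.3% are shared with exons of Tmem198b and Gm47093.

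Mmp11, stromelysin-3, which cuts serpins and little matrix, went from 2.97, 2.85 and 2.72 FPKM in normoxic sham to 0.749, 0.536 and 0.934 in normoxic RIRI, and from 2.93, 2.90 and 2.88 in preconditioned sham to 0.990, 1.93 and 1.74 in preconditioned RIRI. All injured kidneys were below all shams, and preconditioned RIRI was above normoxic RIRI without overlap. The log2 fold changes were -1.15 ± 0.13, -0.63 ± 0.13 and, between the RIRI groups, 0.54 ± 0.13 (adjusted p = 9.27e-06, 0.00182 and 0.00714), the last being 0.35 with quantile normalization. Mmp23 and Mmp28 were not called in these 3 comparisons, with log2 differences from -0.22 to 0.35.

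Among the ADAMTS proteases that cut proteoglycans such as aggrecan and versican, Adamts1, Adamts4 and Adamts9 rose in normoxic injury and Adamts5 and Adamts15 fell. Adamts1, on chromosome 16 from 85793827 to 85803113, was the most abundant: it measured 9.20, 8.43 and 10.2 FPKM in normoxic sham, 86.9, 95.5 and 92.8 in normoxic RIRI, 13.8, 10.9 and 8.48 in preconditioned sham and 48.2, 37.2 and 44.2 in preconditioned RIRI. The injured groups were far apart from each other and from the shams. Its mean was 9.90 times the sham mean in normoxic RIRI and 3.90 times in preconditioned RIRI, with log2 fold changes of 3.18 ± 0.14 and 1.89 ± 0.14 (adjusted p = 8.15e-09 and 1.70e-06). Between the RIRI groups it differed by -1.08 ± 0.14 (adjusted p = 2.17e-04).

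Adamts4 went from 0.221, 0.180 and 0.351 FPKM in normoxic sham to 6.49, 11.8 and 14.1 in normoxic RIRI, and from 0.348, 0.270 and 0.383 in preconditioned sham to 5.07, 4.98 and 5.53 in preconditioned RIRI. The preconditioned RIRI values were close together and all below normoxic RIRI, whose replicate 1 was the nearest. The log2 fold changes were 3.18 ± 0.20 and 2.22 ± 0.20 for the 2 injuries and -0.87 ± 0.20 between the RIRI groups (adjusted p = 6.26e-08, 4.40e-06 and 0.00439).

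Adamts9 measured 1.77 ± 0.175 FPKM in normoxic sham, 3.96 ± 0.406 in normoxic RIRI, 1.85 ± 0.166 in preconditioned sham and 2.53 ± 0.110 in preconditioned RIRI. It rose by 0.84 ± 0.085 in normoxic injury (adjusted p = 3.23e-06) and by 0.31 ± 0.085 in preconditioned mice (adjusted p = 0.00969, lost with median-ratio rescaling at 0.0654), and was lower in preconditioned than in normoxic RIRI (-0.49 ± 0.085, adjusted p = 0.00107). Its exons share 12.0% of their bases with A730049H05Rik and Gm15737.

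Adamts15 ran the opposite way to Adamts1, with 3.31, 4.64 and 4.07 FPKM in normoxic sham, 0.427, 0.958 and 0.480 in normoxic RIRI, 2.85, 3.37 and 2.53 in preconditioned sham and 1.54, 2.05 and 1.65 in preconditioned RIRI. Normoxic RIRI lay below the other 3 groups with no overlap, and preconditioned RIRI lay between it and the shams. It fell in both injuries (-1.63 ± 0.14 and -0.51 ± 0.14, adjusted p = 9.24e-07 and 0.00993) and was higher in preconditioned than in normoxic RIRI (0.77 ± 0.14, adjusted p = 0.00148). Adamts5, the second aggrecanase beside Adamts4, fell in both injuries (-0.57 ± 0.12 and -0.45 ± 0.12, adjusted p = 9.31e-04 and 0.00739), and its RIRI groups differed by 0.16 ± 0.12 (adjusted p = 0.295).

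Adamts2, which removes the N-propeptide of fibrillar procollagens, went from 0.498, 0.924 and 0.659 FPKM in normoxic sham to 2.33, 2.79 and 2.05 in normoxic RIRI, and from 0.653, 0.678 and 0.777 in preconditioned sham to 1.26, 1.90 and 1.46 in preconditioned RIRI. Normoxic RIRI stood highest with no overlap. It rose by 1.00 ± 0.12 and 0.57 ± 0.12 in the 2 injuries (adjusted p = 1.58e-05 and 0.00226). The difference of -0.42 ± 0.12 between the RIRI groups (adjusted p = 0.0179) was lost without normoxic RIRI replicate 2 (adjusted p = 0.0692) or preconditioned RIRI replicate 1 (0.0654). Adamts10, a protease that binds fibrillin microfibrils, fell in both injuries (-0.81 ± 0.098 and -0.61 ± 0.098, adjusted p = 1.33e-05 and 3.10e-04) and was higher in preconditioned than in normoxic RIRI (0.42 ± 0.098, adjusted p = 0.00539).

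The inhibitors divided. Timp1, the inducible TIMP, on chromosome X from 20870166 to 20874737, measured 0.133, 0.160 and 0.126 FPKM in normoxic sham, 56.6, 31.5 and 58.4 in normoxic RIRI, 0.165, 0.198 and 0.339 in preconditioned sham and 26.7, 22.8 and 19.4 in preconditioned RIRI. From 4, 5 and 4 reads in normoxic sham it reached 1703, 939 and 1777 in normoxic RIRI, and no preconditioned RIRI kidney reached the lowest of these. The log2 fold change was 5.40 ± 0.19 in normoxic injury (adjusted p = 2.03e-09), 4.27 ± 0.19 in preconditioned mice (adjusted p = 4.69e-08) and -1.02 ± 0.19 between the RIRI groups (adjusted p = 0.00176).

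Timp3, an inhibitor that is bound to the matrix and also blocks ADAMTS proteases, was the most abundant of the 85 genes in all 12 libraries. It measured 462, 506 and 511 FPKM in normoxic sham, 326, 309 and 244 in normoxic RIRI, 408, 394 and 395 in preconditioned sham and 458, 361 and 389.6 in preconditioned RIRI. Normoxic RIRI was lowest with no overlap, and injured and sham kidneys of preconditioned mice overlapped. Preconditioned sham lay below normoxic sham without overlap. Timp3 fell in normoxic injury (-0.76 ± 0.11, adjusted p = 6.63e-05), differed by 0.01 ± 0.11 in preconditioned mice (adjusted p = 0.962) and was higher in preconditioned than in normoxic RIRI (0.46 ± 0.11, adjusted p = 0.0065). Of its exonic bases, 21.3% are shared with Syn3, in which the gene lies.

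Timp2, which is made constitutively, fell in both injuries by little, from 15.5 ± 0.761 to 12.2 ± 0.784 FPKM in normoxic and from 17.8 ± 0.812 to 13.0 ± 1.23 in preconditioned mice (-0.33 ± 0.080 and -0.42 ± 0.080, adjusted p = 0.00281 and 9.70e-04). Timp4 was below the filter, with at most 23 reads in a library. Summed over each family, FPKM of the MMPs ran from 14.2 to 15.3 in normoxic sham, 26.3 to 38.5 in normoxic RIRI and 19.9 to 21.0 in preconditioned RIRI, and that of the TIMPs from 477 to 527, 316 to 395 and 398 to 497.

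**Figure D2:**
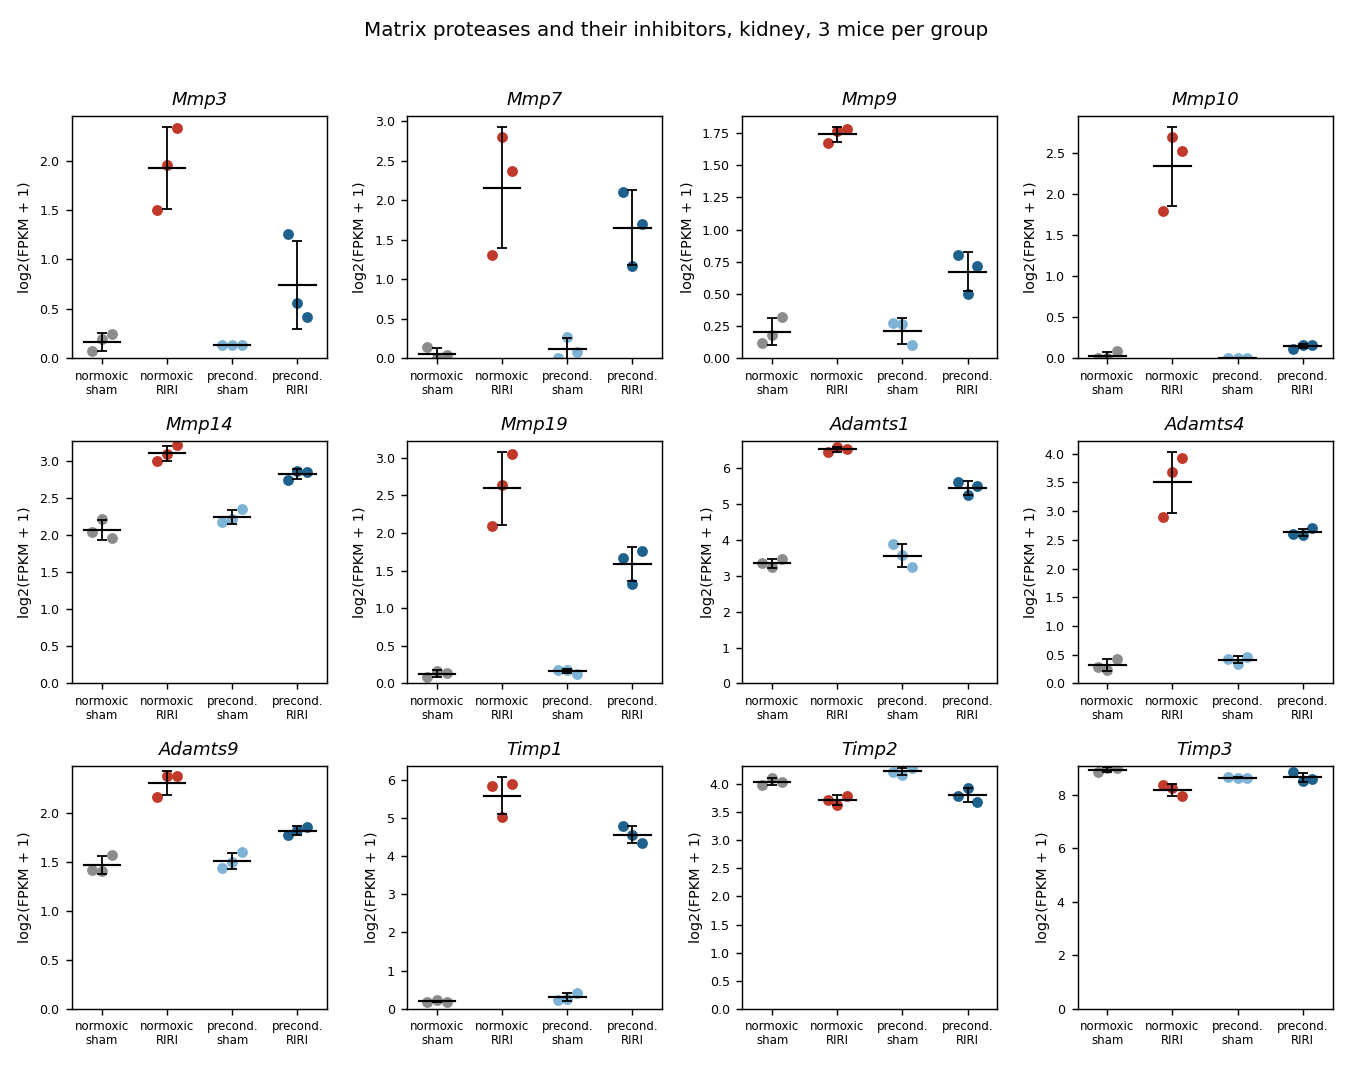
Log2(FPKM + 1) of 12 proteases and inhibitors in each kidney (points, 3 per group), with the group mean (line) and SD (bars, drawn down to 0 at most). For Mmp10, Mmp9 and Adamts1 the preconditioned RIRI points lie below all normoxic RIRI points, and Timp3 is lowest in normoxic RIRI.

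The 6 chains of collagen IV fell into 2 sets. Col4a1 and Col4a2, which form the common network and stand head to head on chromosome 8 with start sites 21 bases apart, rose together. Col4a3 and Col4a4, head to head on chromosome 1 with start sites 72 bases apart, fell together, as did Col4a5, whose neighbour on chromosome X is Col4a6 at 1309 bases. Col4a1 measured 42.3, 45.4 and 40.9 FPKM in normoxic sham, 145, 145 and 158 in normoxic RIRI, 43.4, 45.2 and 49.3 in preconditioned sham and 115, 95.6 and 115 in preconditioned RIRI. Col4a2 measured 32.4, 31.2 and 30.4 FPKM in normoxic sham, 103, 103 and 106 in normoxic RIRI, 34.2, 35.4 and 36.7 in preconditioned sham and 80.5, 67.4 and 83.4 in preconditioned RIRI. For both chains the sham groups lay lowest, preconditioned RIRI next and normoxic RIRI highest, and neither injured group overlapped another group.

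Col4a1 was higher by 1.78 ± 0.085 in normoxic injury (adjusted p = 1.10e-08) and by 1.22 ± 0.085 in preconditioned mice (adjusted p = 9.02e-07), and the RIRI groups differed by -0.47 ± 0.085 (adjusted p = 0.00143). For Col4a2 these values were 1.69 ± 0.079, 1.10 ± 0.079 and -0.43 ± 0.079 (adjusted p = 9.43e-09, 1.10e-06 and 0.00148). Endothelial cells make these chains, and their 9 markers were split, 3 higher and 3 lower in normoxic injury, and their sum was 214 to 231 in normoxic sham and 199 to 265 FPKM in normoxic RIRI.

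Col4a3 measured 28.3, 27.6 and 27.3 FPKM in normoxic sham, 9.06, 9.01 and 6.99 in normoxic RIRI, 38.4, 35.2 and 28.5 in preconditioned sham and 15.6, 19.5 and 11.8 in preconditioned RIRI. Col4a4 measured 26.1, 23.4 and 24.4 FPKM in normoxic sham, 10.7, 9.79 and 8.94 in normoxic RIRI, 31.0, 31.0 and 24.9 in preconditioned sham and 15.0, 17.1 and 13.0 in preconditioned RIRI. For Col4a5 the values were 5.68, 5.88 and 5.72 in normoxic sham, 3.79, 2.19 and 2.80 in normoxic RIRI, 6.70, 6.06 and 7.38 in preconditioned sham and 4.51, 5.61 and 4.28 in preconditioned RIRI. In each of the 3 genes normoxic RIRI was lowest without overlap and preconditioned RIRI lay between it and both sham groups.

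The log2 fold changes of Col4a3 were -1.63 ± 0.16 in normoxic injury, -1.09 ± 0.16 in preconditioned mice and 0.81 ± 0.16 between the RIRI groups (adjusted p = 2.42e-06, 1.64e-04 and 0.0021). Those of Col4a4 were -1.25 ± 0.11, -0.90 ± 0.11 and 0.56 ± 0.11 (adjusted p = 1.12e-06, 4.99e-05 and 0.00219). Col4a5 gave -0.80 ± 0.14, -0.41 ± 0.14 and 0.58 ± 0.14 (adjusted p = 1.96e-04, 0.0224 and 0.00562), of which the second was lost without any one of preconditioned sham replicates 1 and 3 (adjusted p = 0.054 and 0.0814) and preconditioned RIRI replicates 1 and 3 (0.0688 and 0.0823). Col4a6 stayed under 1 FPKM in every library, with 0.514 ± 0.170 in normoxic sham and 0.164 ± 0.0591 in normoxic RIRI.

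Podocytes make the α3, α4 and α5 chains in the glomerulus, and some tubule cells make them too. Of 6 podocyte markers, 2 were higher and 2 lower in normoxic injury, with a summed FPKM of 70.8 to 91.7 in normoxic sham and 80.6 to 81.6 in normoxic RIRI. All 8 proximal tubule markers were lower, summing to 18667 to 24468 in normoxic RIRI, and 6 of 8 markers of the thick ascending limb and collecting duct, 7 of which were higher in preconditioned than in normoxic RIRI. Most of the proximal tubule sum was Kap, with a mean FPKM of 42823 in normoxic sham and 19271 in normoxic RIRI. The sum was 31509 to 36387 in preconditioned sham and 16288 to 21512 in preconditioned RIRI. Of these 8 markers, 5 were higher and 0 lower in preconditioned than in normoxic RIRI. The part of these cell types in the collagen IV results was not tested.

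**Figure D3:**
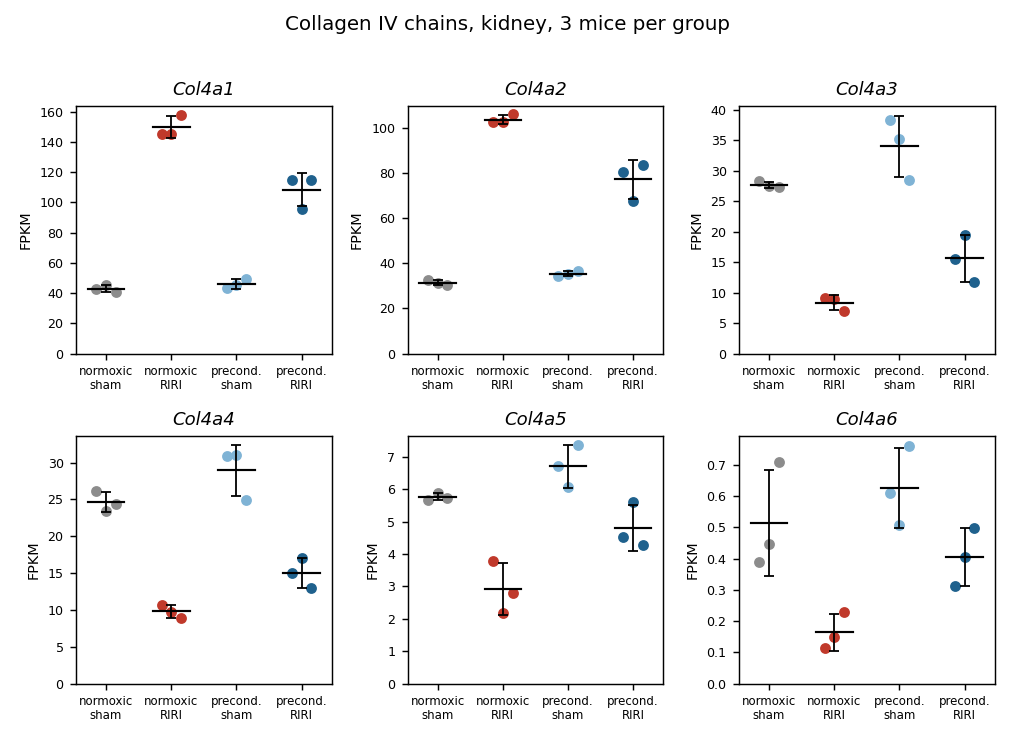
FPKM of the 6 collagen IV chains in each kidney (points, 3 per group) with the group mean (line) and SD (bars). Col4a1 and Col4a2 are highest in normoxic RIRI, and Col4a3, Col4a4 and Col4a5 are lowest there, with preconditioned RIRI in between.

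Other collagens of basement membranes and vessel walls also rose. Col18a1, whose C-terminal fragment is endostatin, on chromosome 10 from 77052178 to 77166530, went from 22.3, 23.8 and 21.7 FPKM in normoxic sham to 93.1, 77.0 and 78.3 in normoxic RIRI, and from 27.5, 26.7 and 27.3 in preconditioned sham to 68.0, 63.9 and 70.5 in preconditioned RIRI. The injured groups did not overlap each other or the shams. It rose by 1.82 ± 0.080 and 1.28 ± 0.080 (adjusted p = 6.25e-09 and 4.48e-07). Its difference of -0.29 ± 0.080 between the RIRI groups (adjusted p = 0.0137) was lost without preconditioned RIRI replicate 2 (adjusted p = 0.0531).

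Col8a1, a short-chain collagen of vessel walls, rose from 1.23 ± 0.181 to 4.18 ± 1.24 FPKM in normoxic and from 1.07 ± 0.176 to 3.30 ± 0.837 in preconditioned mice, by 1.19 ± 0.17 and 1.04 ± 0.17 (adjusted p = 6.20e-05 and 3.97e-04), and its RIRI groups overlapped. Col15a1, the relative of Col18a1 between basement membrane and interstitium, measured 4.47, 5.79 and 4.10 FPKM in normoxic sham, 6.41, 3.42 and 5.44 in normoxic RIRI, 3.78, 3.73 and 5.59 in preconditioned sham and 6.05, 10.4 and 6.85 in preconditioned RIRI. Only the increase in preconditioned mice was called (0.69 ± 0.22, adjusted p = 0.0204), and the call was lost without preconditioned RIRI replicate 2, the highest library (adjusted p = 0.0819), or without preconditioned sham replicate 1 or 2 (0.0688 and 0.0717).

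Several interstitial collagens had their highest levels in preconditioned RIRI. Col1a1, the α1 chain of type I collagen, on chromosome 11 from 94936224 to 94953042, measured 3.81, 4.38 and 2.80 FPKM in normoxic sham, 6.59, 2.70 and 4.05 in normoxic RIRI, 4.77, 4.75 and 5.19 in preconditioned sham and 8.68, 16.9 and 8.35 in preconditioned RIRI. All 3 preconditioned RIRI kidneys were above the other 9, and replicate 2 was far above the remaining ones. Col1a1 differed by 1.17 ± 0.27 between the RIRI groups (adjusted p = 0.00535) and rose by 0.99 ± 0.27 in preconditioned injury (adjusted p = 0.00914), while the normoxic injury difference was 0.18 ± 0.27 (adjusted p = 0.577).

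Col1a2, the α2 chain, measured 11.1, 13.0 and 11.3 FPKM in normoxic sham, 11.2, 6.07 and 8.04 in normoxic RIRI, 13.9, 13.2 and 14.3 in preconditioned sham and 11.3, 21.5 and 12.2 in preconditioned RIRI. The preconditioned groups overlapped, and the RIRI groups were separated by little, normoxic replicate 1 lying just under preconditioned replicate 1. Between the RIRI groups it was higher by 0.75 ± 0.22 (adjusted p = 0.0178), which fell to 0.47 without preconditioned RIRI replicate 2 (adjusted p = 0.0616) and was not called without normoxic RIRI replicate 2 either (adjusted p = 0.0723).

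Col3a1, the chain of type III collagen, measured 6.92, 9.28 and 6.60 FPKM in normoxic sham, 14.9, 9.89 and 13.6 in normoxic RIRI, 6.65, 6.71 and 9.26 in preconditioned sham and 14.0, 27.4 and 12.4 in preconditioned RIRI. Both injured groups lay above the shams, they overlapped each other, and preconditioned RIRI replicate 2 was again the highest library. It rose by 1.08 ± 0.25 in preconditioned mice (adjusted p = 0.00385) and by 0.67 ± 0.25 in normoxic mice (adjusted p = 0.031). The normoxic call was lost with either rescaling (adjusted p = 0.0733 and 0.0949) and without normoxic sham replicate 1 or 3 (0.0837 and 0.0941) or normoxic RIRI replicate 1 or 3 (0.0999 and 0.0812).

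Type V collagen, which sets the diameter of type I fibrils, followed in part. Col5a1 measured 1.26, 1.23 and 1.22 FPKM in normoxic sham, 2.90, 1.38 and 2.46 in normoxic RIRI, 1.58, 1.58 and 1.67 in preconditioned sham and 3.22, 4.11 and 3.18 in preconditioned RIRI, rising in both injuries without overlap (0.51 ± 0.15 and 0.78 ± 0.15, adjusted p = 0.00976 and 0.0011). It was also higher in preconditioned than in normoxic RIRI (0.50 ± 0.15, adjusted p = 0.0208). The latter was lost without preconditioned RIRI replicate 2 (adjusted p = 0.0842) and came to 0.29 without normoxic RIRI replicate 2. Col5a3 rose by 0.66 ± 0.18 in preconditioned mice (adjusted p = 0.00871) and by 0.50 ± 0.18 in normoxic mice (adjusted p = 0.0257), the latter being 0.30 without normoxic RIRI replicate 3 (adjusted p = 0.12) and not called without normoxic RIRI replicate 1 (0.0677) or normoxic sham replicate 2 or 3 (0.0699 and 0.0586). Col5a2 was not called in any comparison. Col27a1, a fibrillar collagen of cartilage, was not called in the fit of all 4 groups, with 4.32, 3.91 and 4.06 FPKM in normoxic sham, 7.97, 6.68 and 5.90 in normoxic RIRI, 4.51, 3.74 and 4.53 in preconditioned sham and 5.55, 2.90 and 12.5 in preconditioned RIRI. Its values were widely spread in preconditioned RIRI only. The normoxic groups did not overlap, and a limma fit of only these groups called Col27a1 higher in normoxic injury (0.62, adjusted p = 0.00148). Without preconditioned RIRI replicate 3, its highest library, the normoxic injury difference of 0.62 was called (adjusted p = 0.00671), and Col27a1 was lower in preconditioned than in normoxic RIRI (-0.63, adjusted p = 0.0239).

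Col6a3, a chain of the beaded filaments of type VI collagen, measured 2.25, 2.51 and 2.10 FPKM in normoxic sham, 2.61, 0.917 and 2.89 in normoxic RIRI, 2.13, 2.13 and 2.32 in preconditioned sham and 3.74, 4.72 and 4.64 in preconditioned RIRI. Preconditioned RIRI was above all other kidneys, and normoxic RIRI replicate 2 was below all others. The difference was 0.83 ± 0.21 between the RIRI groups (adjusted p = 0.00791), 0.51 without normoxic RIRI replicate 2, and 0.75 ± 0.21 in preconditioned injury (adjusted p = 0.0103). Its partners Col6a1 and Col6a2 were not called in any comparison.

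Col16a1, a fibril-associated collagen, measured 1.90, 1.74 and 1.45 FPKM in normoxic sham, 2.18, 1.01 and 2.18 in normoxic RIRI, 2.08, 1.90 and 1.87 in preconditioned sham and 2.78, 3.76 and 3.25 in preconditioned RIRI. It had the same order, with all preconditioned RIRI kidneys highest and normoxic RIRI replicate 2 lowest. It differed by 0.64 ± 0.16 between the RIRI groups (adjusted p = 0.00824, with a value of 0.42 without normoxic RIRI replicate 2) and by 0.52 ± 0.16 in preconditioned injury (adjusted p = 0.0166, lost without preconditioned RIRI replicate 2 at 0.0591).

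Col14a1 and Col12a1, relatives that coat fibrils, moved in opposite directions. Col14a1 went from 6.62, 7.04 and 6.78 FPKM in normoxic sham to 1.80, 1.64 and 1.28 in normoxic RIRI and from 6.31, 7.18 and 6.64 in preconditioned sham to 2.44, 3.17 and 2.25 in preconditioned RIRI. The sham groups overlapped, and normoxic RIRI lay below preconditioned RIRI without overlap. Its log2 fold changes were -1.61 ± 0.10, -1.10 ± 0.10 and 0.49 ± 0.10 in the 2 injuries and between the RIRI groups (adjusted p = 9.33e-08, 7.57e-06 and 0.00338). Col12a1 rose in both injuries (0.88 ± 0.11 and 0.63 ± 0.11, adjusted p = 2.36e-05 and 7.03e-04), and its RIRI groups differed by -0.12 ± 0.11 (adjusted p = 0.413).

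Fibroblasts and pericytes are main makers of interstitial collagen. Of 10 tested markers of these cells, 4 were higher and 3 lower in normoxic injury and 1 was higher and 1 lower in preconditioned than in normoxic RIRI. The 12 listed markers summed to 104 to 124 FPKM in normoxic sham, 194 to 284 in normoxic RIRI, 116 to 121 in preconditioned sham and 165 to 179 in preconditioned RIRI, and the difference between the RIRI groups came with Tagln. Without Tagln, singled out after its values were seen, the other 11 summed to 71.9 to 93.0 in normoxic RIRI and 79.1 to 87.8 in preconditioned RIRI, which overlap. Their part in the collagen results was not tested. Fbln5, an elastic fibre protein, was the marker higher in preconditioned than in normoxic RIRI (0.61 ± 0.12, adjusted p = 0.00184), and Tagln, a smooth muscle protein, the lower one (-0.70 ± 0.19, adjusted p = 0.0119). None of the 12 was at 0 in all libraries.

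**Figure D4:**
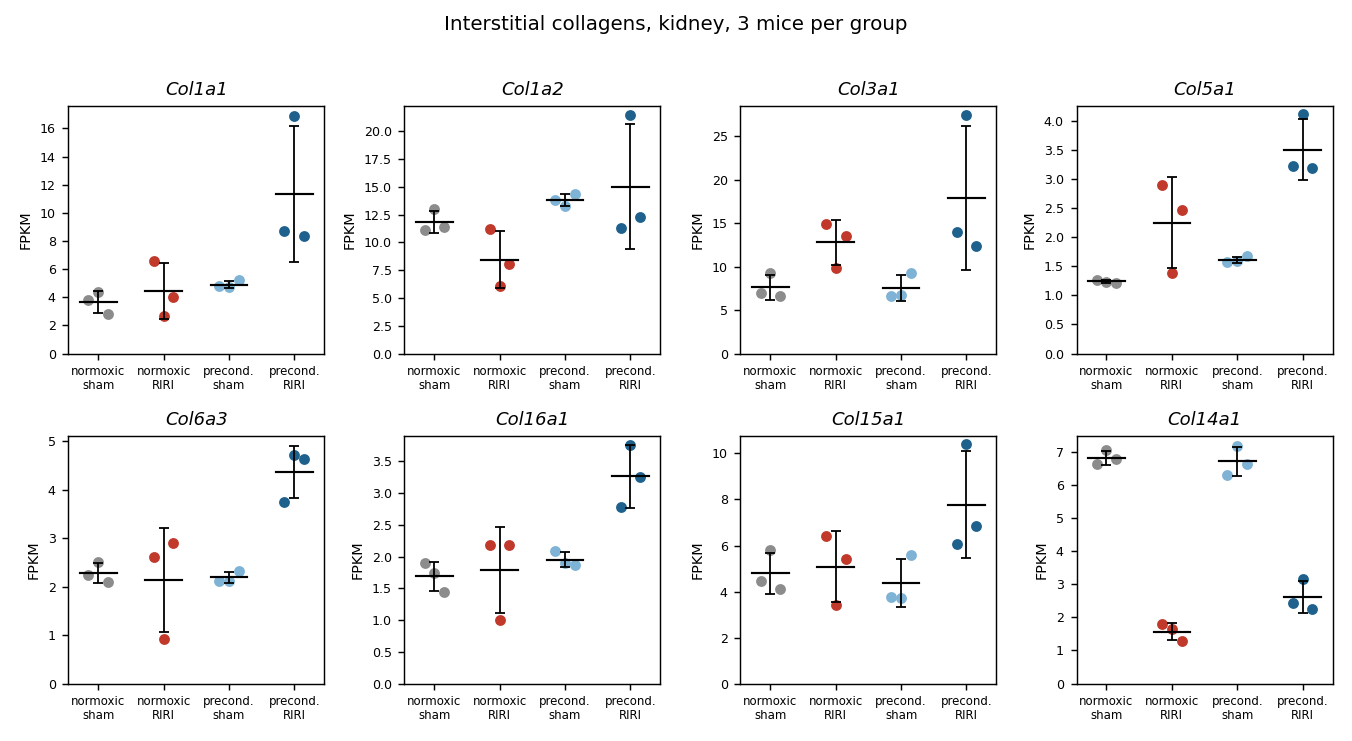
FPKM of 8 interstitial collagen genes in each kidney (points, 3 per group) with the group mean (line) and SD (bars). Col1a1, Col6a3 and Col16a1 are highest in all 3 preconditioned RIRI kidneys, one of which stands apart for Col1a1, Col1a2 and Col3a1 at 16.9, 21.5 and 27.4 FPKM, and Col14a1 is lowest in normoxic RIRI.

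Normoxic injury and the comparison of the RIRI groups both use the normoxic RIRI libraries, so for every gene above these 2 values are not independent of each other. The interaction, the injury effect in preconditioned minus that in normoxic mice, is the direct test of whether the 2 injuries differed. It was called for 15 of the 42 genes, higher for 3 and lower for 12, where 11.3% and 12.6% of all tested genes were called. The 12 were Adamts1, Adamts4, Adamts9, Col18a1, Col4a1, Col4a2, Mmp3, Mmp9, Mmp10, Mmp14, Mmp19 and Timp1, all with a lower injury effect on this scale in preconditioned mice. Mmp9 and Mmp10 passed the filter through normoxic RIRI alone, and Mmp3 could not pass without it. Adamts4, Mmp19 and Timp1 passed through injured kidneys only. The count of 12 was therefore bound in part to the filter. The 3 were Adamts15 and Col14a1, which fell less there, and Timp3, whose injury difference there was near 0. For Timp3 and Adamts15 part of the interaction lay in the shams, where preconditioned mice were lower by log2 differences of -0.30 and -0.35. Neither sham difference was called, except that of Timp3 in a fit of only the sham groups. The 15 interaction values ran from -2.16 ± 0.25 for Mmp10 (adjusted p = 5.05e-04) to 1.12 ± 0.20 for Adamts15 (adjusted p = 0.00317). Of the chains that were higher in preconditioned RIRI, Col1a1 gave 0.82 ± 0.38 (adjusted p = 0.141) and Col6a3 0.88 ± 0.30 (adjusted p = 0.0505), and neither was called, though Col6a3 was after either rescaling (adjusted p = 0.0376 and 0.0314). For genes near 0 in shams the interaction depends on the scale: with voom on the recovered reads the call was lost for Timp1 (-1.67, adjusted p = 0.326), Mmp19 (-1.66, 0.25), Adamts4 (-1.43, 0.191), Mmp3 (-2.02, 0.187) and Mmp10 (-4.12, 0.0622), each with the same sign. Leaving out 1 library ended further calls: that of Adamts4 for normoxic sham 1 or 2, normoxic RIRI 2, preconditioned sham 1 or 3 or preconditioned RIRI 2 (adjusted p of at most 0.0583), that of Col14a1 for any normoxic sham, normoxic RIRI 3, preconditioned sham 1 or 3 or preconditioned RIRI 2 (at most 0.0704), that of Mmp14 for normoxic sham 1 or 3, normoxic RIRI 3 or preconditioned sham 3 (at most 0.0579) and that of Mmp3 for preconditioned RIRI 2 (0.0507).

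Hypoxia without clamping was not followed by a called difference in any of the 42 genes. Between preconditioned and normoxic sham, limma called 0 higher and 0 lower, against 0.186% and 0.235% of all tested genes, and 6 had an unadjusted p under 0.05: Adamts10, Adamts15, Col18a1, Mmp15, Timp2 and Timp3. The log2 differences ran from -0.35 for Adamts15 to 0.35 for Col1a1, and the smallest adjusted p was 0.199, for Col18a1. Voom on the recovered reads called 0 as well, and a fit of only the sham groups called Timp3 lower (-0.30, adjusted p = 0.0415). The sham groups were wholly apart in 31.0% of the 42 genes, beside 29.4% of all tested genes.

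The 43 genes below the filter were mostly near absent: 21 never reached 0.1 FPKM, 8 reached 0.1 to under 0.5, and 14 reached at least 0.5, of which 3 at least 1. Without the filter, 7 of the 43 were higher and 9 lower in normoxic injury, where 23.7% and 17.9% of 25553 genes were called. The higher ones were Adamts12, Col13a1, Col17a1, Col7a1, Mmp24, Mmp27 and Timp4, and the lower ones Adamts8, Col19a1, Col23a1, Col26a1, Col4a6, Col6a5, Col6a6, Mmp13 and Mmp16. Among transmembrane collagens, which sit in the cell surface, Col13a1 measured 0.152, 0.163 and 0.126 FPKM in normoxic sham and 0.615, 1.35 and 1.39 in normoxic RIRI, while Col23a1 measured 0.838, 0.595 and 0.684 in normoxic sham and 0.124, 0.115 and 0.0245 in normoxic RIRI. In neither gene did the groups overlap. Col26a1 went from 0.561, 0.659 and 0.328 to 0.0883, 0.0372 and 0.102 FPKM in normoxic injury and measured 0.391, 0.739 and 0.440 in preconditioned RIRI, above normoxic RIRI without overlap (adjusted p = 0.00965 without the filter). Adamts14, a procollagen N-proteinase, measured 0.305, 0.309 and 0.242 FPKM in normoxic sham and 0.739, 0.401 and 0.361 in normoxic RIRI, and the less studied Adamts6 measured 0.369 ± 0.112 and 0.451 ± 0.146. Neither was called. Between the RIRI groups 2 were called higher, Adamts16 and Col26a1, and 1 lower, Mmp27, against 11.1% and 8.54% of all genes. Col10a1, Adamts19, Mmp1a and Mmp1b were not analysed here.

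Genes that make, bind and regulate the matrix are given for context, from lists chosen with the same knowledge of earlier results. Of all tested genes, 41.6% were called higher and 30.1% lower in normoxic injury, and 24.7% and 17.4% between the RIRI groups. The counts of each list below, and of the marker lists above, stand beside these shares. Counts near them are no result about a list. Of 26 tested genes of collagen biosynthesis and crosslinking, 11 were higher and 5 lower in normoxic injury (median log2 fold change 0.22), and 5 higher and 2 lower in preconditioned than in normoxic RIRI (median 0.10). Colgalt1, which glycosylates collagen hydroxylysine, rose by 1.17 ± 0.083 (adjusted p = 1.77e-07), and its RIRI groups differed by 0.02 ± 0.083 (adjusted p = 0.882). Loxl1, a relative of lysyl oxidase, and Plod3, a lysyl hydroxylase, rose by 1.42 ± 0.10 and 1.22 ± 0.093 in normoxic injury (adjusted p = 2.15e-07 and 3.17e-07). Lox, the crosslinking enzyme lysyl oxidase, measured 0.328, 0.362 and 0.724 FPKM in normoxic sham, 1.62, 3.09 and 2.29 in normoxic RIRI and 1.16, 0.460 and 0.605 in preconditioned RIRI, and was lower in the last than in the second (-0.93 ± 0.19, adjusted p = 0.0025). Lox would not pass the filter without the normoxic RIRI kidneys, so its being lower in preconditioned RIRI was bound to the filter in part. Plod2, another lysyl hydroxylase, was lower as well (-0.65 ± 0.13, adjusted p = 0.00221). Pcolce, which enhances the C-terminal processing of procollagen, was higher in preconditioned than in normoxic RIRI (0.64 ± 0.12, adjusted p = 0.0019). P3h2, a prolyl hydroxylase that acts on collagen IV, fell in normoxic injury and was higher in preconditioned than in normoxic RIRI (-0.86 ± 0.089 and 0.54 ± 0.089, adjusted p = 3.72e-06 and 7.27e-04).

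Of 5 tested collagen receptors, 2 were higher and 2 lower in normoxic injury (median 0.09), and 2 higher and 1 lower between the RIRI groups. Itgb1, the integrin β1 subunit, rose in normoxic injury and was lower in preconditioned than in normoxic RIRI (1.23 ± 0.072 and -0.52 ± 0.072, adjusted p = 4.60e-08 and 2.62e-04), while Itga1, an α subunit that binds collagen IV with it, changed by -0.83 ± 0.11 and 0.63 ± 0.11 (adjusted p = 2.12e-05 and 8.23e-04). Ddr1, a collagen-binding receptor kinase, rose by 0.79 ± 0.089 in normoxic injury (adjusted p = 8.16e-06). Mrc2, an uptake receptor for collagen, fell there and was higher in preconditioned than in normoxic RIRI (-0.58 ± 0.17 and 0.70 ± 0.17, adjusted p = 0.00818 and 0.00656). Of 22 other matrix genes, 14 were higher and 6 lower in normoxic injury (median 0.48), and 3 higher and 8 lower between the RIRI groups (median -0.07). Tnc, tenascin-C of injured matrix, measured 1.30, 1.81 and 1.91 FPKM in normoxic sham, 25.2, 28.6 and 27.9 in normoxic RIRI and 14.8, 8.67 and 10.2 in preconditioned RIRI, with no overlap. Thbs1, thrombospondin-1, gave 2.63 ± 0.16 in normoxic injury and -1.23 ± 0.16 between the RIRI groups, and Lamc1, the common laminin γ1 chain, rose by 1.54 ± 0.097 in normoxic injury (adjusted p = 4.94e-08, 1.64e-04 and 7.56e-08). Lama1, a laminin chain of tubular basement membrane, gave -0.93 ± 0.12 in normoxic injury and 0.89 ± 0.12 between the RIRI groups (adjusted p = 2.58e-05 and 2.38e-04).

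Of 9 tested genes of plasminogen activation and protease restraint, which act upstream of MMP activation, 5 were higher and 3 lower in normoxic injury (median 0.63), and 2 higher and 3 lower between the RIRI groups (median 0.01). Plaur, the urokinase receptor, measured 2.38, 2.92 and 4.36 FPKM in normoxic sham, 113, 131 and 145 in normoxic RIRI and 48.5, 31.6 and 39.8 in preconditioned RIRI. The injured groups did not overlap, and they differed by -1.69 ± 0.19 (adjusted p = 7.15e-05). Plat, tissue plasminogen activator, rose and was lower in preconditioned than in normoxic RIRI (2.30 ± 0.21 and -1.48 ± 0.21, adjusted p = 1.42e-06 and 3.27e-04). Serpinf2, antiplasmin, ran the other way, with -2.28 ± 0.20 in normoxic injury and 1.28 ± 0.20 between the RIRI groups (adjusted p = 9.46e-07 and 5.40e-04).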

How the data were processed

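The deposited table holds 1 FPKM value per gene symbol and library for 12 kidneys, made by the authors, and the submitters' processing notes name HTSeq, DESeq2 and the mm10 build. The aligner, annotation and strand setting were not given in the sources used here. Library columns were matched to samples by their titles. Within a library every FPKM was a whole multiple of what 1 read of that gene is worth. Whole reads were recovered from these steps for all 25553 genes (relative tolerance 1e-08), so the depth is known up to that scale: the totals were 33096854 to 35707662 reads.

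The genes described here and the gene lists were chosen with earlier results of these data known. A pseudocount of 1 was added to each FPKM, and limma 3.58.1 (R 4.3.3) was fitted to the log2 values, its prior variance following the mean level, for 12357 genes that reached an FPKM of 1 in 3 or more libraries. The fit had 4 group means over all 12 libraries, with BH adjustment over all tested genes and a threshold of 0.05. It was checked on simulated data. Injury was compared with sham within normoxic and within preconditioned mice, preconditioned with normoxic mice within each surgery, and the 2 injury effects with each other (interaction). Named with full values are, in each comparison of 2 groups, up to 20 called members with the largest log2 fold change whose higher group had a mean FPKM of 1 or more, the 2 most abundant members of each role class, the TIMPs, Mmp2, Mmp9, Mmp14 and collagen IV chains, and every member called in the interaction; from each pathway list, the 4 called genes with the smallest adjusted p in a comparison, some of which are not reported here. Adamts5, Col27a1 and Mmp12 were added after their values were seen. The count test, limma voom with TMM factors on the recovered reads, served as an alternative and called 19 of the 42 tested members higher and 15 lower in normoxic injury. Further alternatives were another pseudocount (0.1), the filter left out or raised to an FPKM of 5, median-ratio rescaling, quantile normalization, only the groups compared, no trend, a replicate block and leaving out each library. Gene positions and promoters came from RefSeq (GRCm38.p6) and exon overlaps from GENCODE (GRCm38). The precision of counts is limited by counting error at low reads, and for most members by the spread of 3 mice.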

Additional observations from a re-analysis of the deposited data

Results flagged for a closer look

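The injury effect differed between preconditioned and normoxic mice, by limma's test of the interaction on log2(FPKM + 1), for 15 of the 42 tested genes. Of these, 3 were higher and 12 lower, where 11.3% and 12.6% of all tested genes were called. The count of 12 was bound in part to the filter, as given above. Among proteases the difference was -1.29 for Adamts1, -0.97 for Adamts4, -0.53 for Adamts9, -1.15 for Mmp3, -1.07 for Mmp9, -2.16 for Mmp10, -0.45 for Mmp14 and -1.04 for Mmp19, and it was 1.12 for Adamts15. Among collagens it was -0.56 for Col4a1, -0.60 for Col4a2, -0.54 for Col18a1 and 0.51 for Col14a1. Of the inhibitors, Timp1 gave -1.13 and Timp3 0.77. Adjusted p-values ran from 5.05e-04 for Mmp10 to 0.0284 for Col14a1. With voom on the recovered reads the calls of Timp1, Mmp19, Adamts4, Mmp3 and Mmp10 were lost. The calls of Adamts4 and Col14a1 were each lost under 8 alternatives.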

How the results depend on the processing

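Over 21 alternatives, 84 of the 104 called differences of the 42 tested genes kept their call in every alternative that gave a value, 20 lost it in at least 1, and none changed sign. A filter at an FPKM of 5 left fewer genes to test and lowered the counts to 8 higher and 6 lower in normoxic injury, 7 and 7 between the RIRI groups, 10 and 5 in preconditioned injury and 7 lower in the interaction. Without a filter, 21 genes were lower in normoxic injury, the added ones being genes below the filter. Calls were also lost without it, at adjusted p-values of 0.0523 to 0.0829. These were Col3a1 and Col5a3 in normoxic injury, Col1a2 and Col5a1 between the RIRI groups, and Col15a1, Col4a5 and Mmp3 in preconditioned injury. In the interaction they were Adamts4, Col14a1, Mmp3 and Mmp19. A fit of only the sham groups called 1 gene, Timp3, lower. A fit of only the RIRI groups lost Adamts2, Col18a1, Col1a2, Col5a1 and Mmp14 (adjusted p = 0.0513 to 0.0870). A fit of only the normoxic groups lost Col5a3 (adjusted p = 0.0585) and gained Col27a1 as higher (0.62, adjusted p = 0.00148) and Col1a2 as lower (-0.48, adjusted p = 0.0484). In the interaction, 6 genes were higher after median-ratio rescaling, and 6 were higher and 7 lower with voom on the recovered reads; the cause was not tested. Leaving out 1 library gave 15 to 20 higher and 12 to 15 lower genes in normoxic injury, 11 to 15 and 10 to 14 between the RIRI groups, 20 to 22 and 9 to 10 in preconditioned injury, 2 to 7 and 9 to 12 in the interaction, and 0 between the shams. Leaving out 1 library also added calls: Col1a2, Col6a1 and Mmp23 lower in normoxic injury without normoxic RIRI replicate 1 (-0.68, -0.42 and -0.30), Col1a2 without preconditioned RIRI replicate 2 (-0.48), Col15a1 higher between the RIRI groups without replicate 1 of either (0.69 and 0.67), Col6a1 without normoxic RIRI replicate 1 (0.52), Col5a3 without normoxic RIRI replicate 3 (0.46), Mmp7 lower without normoxic RIRI replicate 1 (-0.93), Col27a1 lower between the RIRI groups (-0.63) and higher in normoxic injury (0.62) without preconditioned RIRI replicate 3, higher in normoxic (0.62) and preconditioned (0.84) injury without preconditioned RIRI replicate 2, Mmp28 higher in preconditioned injury without normoxic RIRI replicate 2 (0.35) or preconditioned RIRI replicate 1 (0.48), and in the interaction Col1a1, Col4a5, Col6a3, Mmp15 and Mmp7 without normoxic RIRI replicate 1 (1.09, 0.54, 1.01, 0.55 and -0.99), Col6a3 without normoxic RIRI replicate 2 or 3 (0.55 and 1.06), Mmp11 without preconditioned RIRI replicate 1 (0.69), Mmp15 without preconditioned sham replicate 1 (0.55) and Col4a3 without preconditioned RIRI replicate 3 (0.71). Without any 1 normoxic RIRI library, Mmp9 and Mmp10 no longer passed the filter, which lowers these counts. With a replicate block, preconditioned injury had 21 higher genes (Mmp3 was lost, adjusted p = 0.0578) and the interaction 4 (Col4a3 was gained, adjusted p = 0.04), and the other counts were the same. Same-numbered libraries correlated at -0.248 to 0.165 in their deviations from the group means, and libraries of unlike number at -0.157 to 0.336. Deviations from means of 3 libraries are tied to each other, so they cannot show whether same-numbered mice shared a day or litter. Depth limits genes such as Mmp10 in shams, where 0 to 4 reads were found.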

Other observations

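Ratios of FPKM within a library, chosen after the values were seen, are given as a description without a test. The ratio of Col4a1 to Col4a3 was 1.50 to 1.64 in normoxic sham, 16.1 to 22.6 in normoxic RIRI, 1.13 to 1.73 in preconditioned sham and 4.90 to 9.71 in preconditioned RIRI, so that the 4 groups held 3 separate levels. Within each gene pair the ratio moved far less: Col4a1 to Col4a2 stayed between 1.27 and 1.49 and Col4a3 to Col4a4 between 0.782 and 1.24 over the 12 libraries. The ratio of the 2 chains of type I collagen was not constant, with Col1a1 to Col1a2 at 0.247 to 0.342 in normoxic sham, 0.444 to 0.590 in normoxic RIRI, 0.345 to 0.363 in preconditioned sham and 0.682 to 0.785 in preconditioned RIRI. Adamts1 to Adamts15 ran from 1.82 to 2.78, 99.7 to 203.5, 3.24 to 4.85 and 18.1 to 31.3 in these groups.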
